A study of Sus scrofa with 8 samples.

Results

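The cytosolic ribosomal protein genes were followed in the hearts of Tibetan and Yorkshire pigs. They were taken as every gene of the deposited expression table whose name is RPL or RPS and a number, with or without the letter A, X, L or Y, or is RPLP0, RPLP1, RPLP2 or RPSA, with the S6 kinase names left out. The rule used names and no measured value. It found 85 rows with 74 different symbols among 18975 genes, and 9 symbols stand on more than 1 row. Of these rows, 79 passed the filter used for testing, at least 1 FPKM in at least 2 libraries, as did 11913 genes in all. FPKM counts the fragments of a gene relative to the length of its transcript and to all mapped fragments of the library. The 79 genes comprise 48 of the large subunit and 31 of the small subunit.

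The cytosolic ribosome translates nuclear mRNAs, and it is built from ribosomal RNA and a set of proteins that are each needed in about equal number. The large subunit joins amino acids and carries the flexible stalk of the P proteins, and the small subunit holds and decodes the mRNA. Ribosomal protein mRNAs are short, abundant in nearly every cell and known for a pyrimidine tract at their start, through which the mTOR pathway controls their translation. Growth of heart muscle is known to go with more ribosomes.

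RNA-seq was performed on hearts of male pigs slaughtered at 6 months of age. Group TH comprised Tibetan pigs raised at 3000 m, TL Tibetan pigs raised at 100 m, YH Yorkshire pigs raised at 3000 m and YL Yorkshire pigs raised at 100 m. Each group had 2 libraries, and each library held RNA pooled from 4 pigs, so that the p-values measure how pools vary, and animals only through them. The highland and the lowland pigs lived at different places, and altitude and place cannot be told apart. The sample descriptions of both YL libraries name the file of TL, and these libraries were taken as YL by their titles and breed.

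Between 15686819 reads (TH2) and 26722605 reads (TH1) fell on genes. Genes encoded on the mitochondrial genome held from 57.71% to 87.6% of the summed FPKM. Ventricular muscle genes, such as those of the contractile filaments, summed to 13383 FPKM in YL2 and to 19999 to 35907 FPKM in the other libraries (6 of 8 listed genes in the table). YL2 stood apart by 9 kidney genes, which summed to 4503 FPKM there and to at most 17.1 FPKM elsewhere. The 4 atrial muscle genes summed to 6611 and 5376 FPKM in TH1 and TH2 and to 389 to 2608 FPKM in the others. The 3 blood genes summed to 3089 and 1625 FPKM in TH1 and TH2 and to 523 to 1399.9 FPKM in the others. Lymphocyte genes (5) summed to 2.74 and 2.01 FPKM in TH1 and TH2 and to 5.58 to 22.3 FPKM elsewhere, and macrophage genes (4) to 11.4 and 21.8 FPKM against 29.0 to 51.6. Thus the sums of the atrial and the blood genes were highest in the TH libraries, and those of the lymphocyte and macrophage genes lowest, but single genes departed from their sums. Of the atrial genes, *MYL4* was at 7.59 and 6.73 FPKM in TH and at 8.85 and 21.4 FPKM in TL. *HBA* was at 745 FPKM in TH2 and at 754 FPKM in TL2, and *CD68* of the macrophage genes was at 5.39 and 5.95 FPKM in TH and at 2.18 to 6.43 FPKM elsewhere. Fibroblast and matrix genes (7) summed to 198 FPKM in TH1, 695 in TH2 and 228 to 811 elsewhere. Endothelial genes (4) summed to 110.3 and 131 FPKM in TH and to 62.9 to 119 FPKM elsewhere, but *VWF* was at 1.07 FPKM in TH1 and at 6.42 to 25.9 FPKM in the other 7 libraries. The part of any of these cell types in the values of the family was not tested. In RNA of heart tissue, fewer cells of a type and less RNA per cell cannot be told apart.

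Ribosomal protein genes were among the most abundant nuclear transcripts of the heart. The mean of the 8 libraries was at least 1000 FPKM for 14 of the 79 genes, from 100 to 1000 FPKM for 51 and below 100 FPKM for 14. Only 632 genes of the whole table had a mean of at least 100 FPKM, and 65 of them were ribosomal protein genes. The median of the means was 495 FPKM over the family, against 5.86 FPKM over all genes tested. The small subunit genes had a median of 579 FPKM and the large subunit genes of 486 FPKM.

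**Figure D1:**
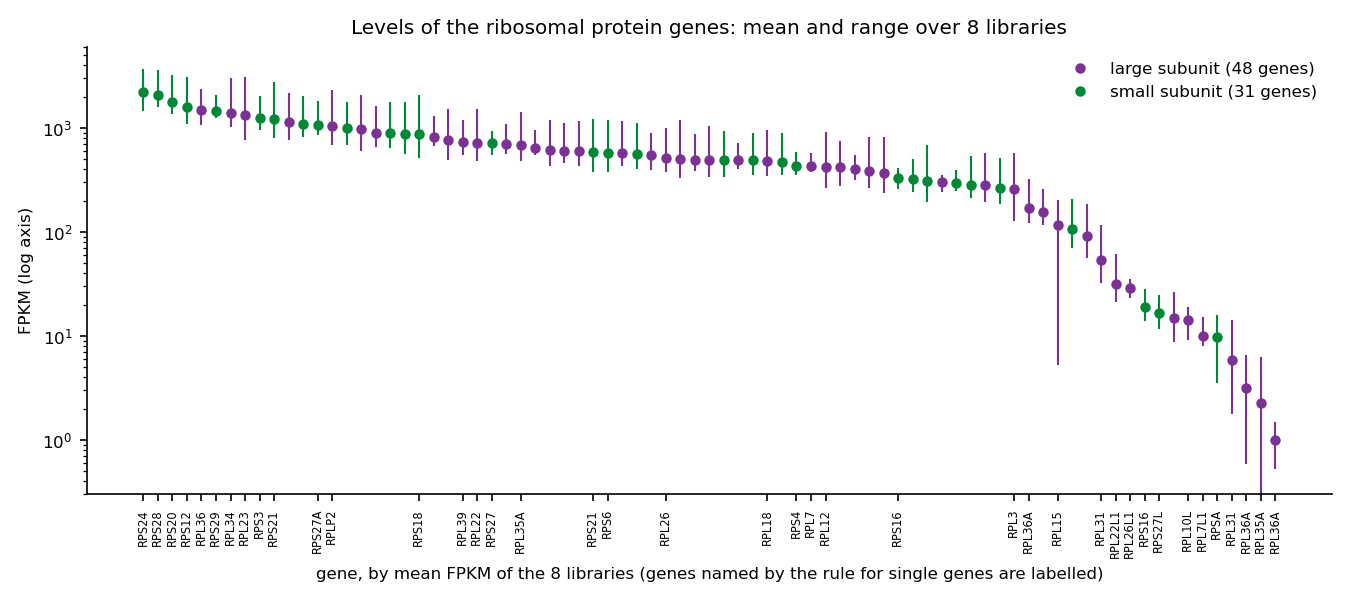
Mean FPKM of each of the 79 ribosomal protein genes over the 8 libraries (points, log axis), with the lowest and the highest library as a line, for 48 large subunit and 31 small subunit genes. The means run from 2202 FPKM (RPS24) to 0.990 FPKM (a row of RPL36A), and a line that reaches the axis stands for a library at 0 FPKM.

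The highest mean was that of *RPS24* (ENSSSCG00000010328, Sscrofa10.2, chromosome 14, 87005401 to 87011466), a small subunit protein. TH1 and TH2 had 3711 and 2139 FPKM, the TL pair 2147 and 2159, the YH pair 1849 and 1914 and the YL pair 2231 and 1466. TH1 was the highest library, and TH2 lay within the range of the others. *RPS28* (ENSSSCG00000013597, chromosome 2, 71320355 to 71321505), which lies near the mRNA exit of the small subunit, followed with 3585 and 2228 FPKM in TH and 1595 to 1916 FPKM in the other 6 libraries. Here both TH libraries lay above all the others.

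The other genes of the 10 highest were *RPS20* (mean of 1779 FPKM), *RPS12* (1598), *RPL36* (1491), *RPS29* (1464), *RPL34* (1407), *RPL23* (1331), *RPS3* (1248) and a row of *RPS21* (ENSSSCG00000021825, 1206). Neighbours in this order differed by less than their spread over the libraries: the range of *RPS24*, 1466 to 3711 FPKM, covered the means of the next 4 genes.

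Most of these genes had both TH libraries above the rest. *RPS20* (ENSSSCG00000006249) had 3196 and 1791 FPKM in TH1 and TH2 and 1366 to 1750.2 FPKM elsewhere, and *RPS12* (ENSSSCG00000004177) had 3119.6 and 1948 against 1098 to 1434. *RPL36* (ENSSSCG00000030010) had 2347 and 1597 FPKM in the TH pair and 1057 to 1552 FPKM elsewhere. For *RPL34* (ENSSSCG00000009146) these values were 3021 and 1429.7 against 1026 to 1241 FPKM. In these 4 genes TH2 was nearer to the other groups than to TH1.

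*RPL23* (ENSSSCG00000021590), which also binds the p53 regulator MDM2, had 3103 and 1479 FPKM in the TH pair against 761 to 1226. The row of *RPS21* had 2788 and 1410 FPKM against 799 to 1053. In *RPS29* (ENSSSCG00000005003) the groups overlapped, since TH2 at 1499 FPKM was below YL1 at 1620.3, with TH1 at 2092 and the rest at 1259.8 to 1361 FPKM. *RPS3*, which also acts in DNA repair, was at 2012 and 1321 FPKM in TH and at 961 to 1257 FPKM in the others.

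A few further genes were followed for their roles. *RPS6* (ENSSSCG00000005169), the protein that S6 kinases phosphorylate, had 1203 and 644 FPKM in TH1 and TH2, with 470 and 484 for the TL pair, 415 and 462 for the YH pair and 574 and 379 for the YL pair. *RPLP2* (ENSSSCG00000012842), a protein of the stalk that recruits elongation factors, was at 2326 and 1069.6 FPKM in TH and at 693 to 929 FPKM elsewhere. *RPS27A* (ENSSSCG00000022357), which is made as a fusion with ubiquitin, was at 1798 and 1169 FPKM in TH and at 850.1 to 1018 FPKM elsewhere. In all 3 genes the TH libraries did not overlap with the other 6, and TH1 was the higher of the pair.

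*RPSA* (ENSSSCG00000003746, chromosome 6, 112903784 to 113226657), the laminin receptor and a small subunit protein, was among the low rows of its subunit, with *RPS27L* and a row of *RPS16*. The TH pair had 12.2 and 15.8 FPKM, the TL pair 3.56 and 3.66, the YH pair 9.60 and 9.66 and the YL pair 9.38 and 14.4, which rest on 74 to 411 reads. Only the TL libraries stood clearly apart, below the other 6. Whether this row holds the main transcript of the gene was not tested.

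Symbols on several rows mostly had a high row and a low row. *RPL36A* had rows with means of 169, 3.15 and 0.990 FPKM, *RPL35A* of 683 and 2.26 FPKM, *RPS16* of 327 and 18.9 FPKM, and *RPL31* of 53.7, 5.85 and 0.0149 FPKM. *RPS21* was the exception among these, with rows at 1206 and 588 FPKM. The high rows followed the pattern of the family to different degrees. *RPS18* (ENSSSCG00000001502), of the small subunit head, had 2083 and 1123 FPKM in the TH pair and 512 to 706 FPKM elsewhere. *RPL18* (ENSSSCG00000025928) had 961 and 521 FPKM against 344 to 468, the high row of *RPL35A* (ENSSSCG00000011856) 1435 and 759 against 482 to 636, and that of *RPS16* (ENSSSCG00000020817) 413 and 411 against 258 to 359.8. TH lay above the rest in these rows. The high rows of *RPL36A* (ENSSSCG00000005005; 322 and 149 FPKM against 121 to 169.9) and *RPL31* (ENSSSCG00000025180; 117 and 48.1 against 32.1 to 67.4) had TH2 within the range of the other groups.

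The lowest rows that passed the filter rest on few reads. The low row of *RPL35A* (ENSSSCG00000014910) had 0 to 20 reads in a library, and those of *RPL36A* had 2 to 20 (ENSSSCG00000024462) and 2 to 4 (ENSSSCG00000028231). The middle row of *RPL31* (ENSSSCG00000008170) had 14.4 and 7.56 FPKM in the TH pair, 1.78 and 3.74 in the TL pair, 3.91 and 5.94 in the YH pair and 5.20 and 4.27 in the YL pair. Its TH libraries were the highest and its TL libraries the lowest. How reads that fit several copies were shared between rows is not given in the sources used here, so that values of such rows are uncertain.

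The 6 rows that did not pass the filter were further rows of *RPS24*, *RPS18*, *RPLP2*, *RPL31* and *RPL18* and the only row named *RPLP1* (ENSSSCG00000007065). None of them had more than 5 reads in any library. The table of gene names gives RPLP1 also for a gene that the expression table leaves without a symbol (ENSSSCG00000004970). That gene had 3612 and 2715 FPKM in the TH pair, 1702 and 2003 in the TL pair, 1664 and 2149 in the YH pair and 2077 and 1555 in the YL pair. Both TH libraries were above the other 6, and the gene is not counted among the 79.

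On the deposited scale, most ribosomal protein genes were highest in TH1. With each gene set against its own mean over the 8 libraries, the median of the 79 genes on the log2(FPKM + 1) scale was 0.99 in TH1 and 0.21 in TH2. It was -0.15 and -0.13 in TL1 and TL2, -0.33 and -0.14 in YH1 and YH2, and -0.01 and -0.36 in YL1 and YL2. The highest library was TH1 for 72 of the 79 genes, as it was for 2974 of the 11913 genes tested. TH2 was above the 6 libraries of the other groups in 61 of the 79 genes, as in 16.7% of all genes tested. The count for TH1 was 68 with median-ratio scaling, as for 12.8% of all genes. It was 25 (1.92% of all genes) with the libraries scaled to the same sum over nuclear genes. With them scaled to the same FPKM sum it was 0 (0.0755%). The lowest library was YL2 for 39 genes, as for 22.5% of all genes tested, and YH1 for 25, as for 9.85%. The gap between the medians of TH1 and TH2 exceeded all other gaps within a group on the deposited and the median-ratio scale. The gap between YL1 and YL2 was the larger with FPKM sum scaling (-0.36 and 0.62) and with the sum over nuclear genes (-0.74 and 0.38).

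**Figure D2:**
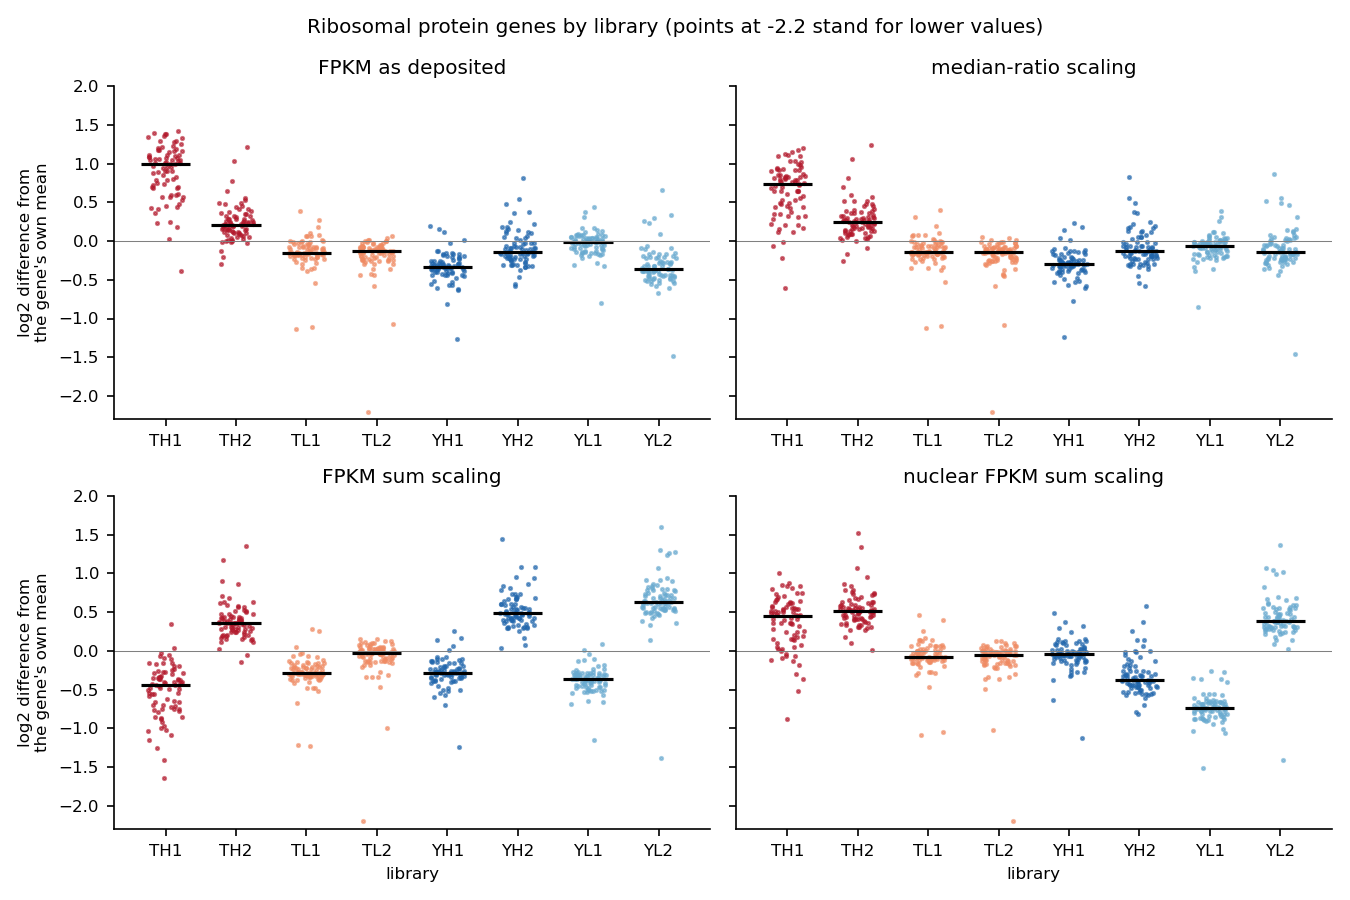
Log2 difference of each of the 79 ribosomal protein genes from its own mean over the 8 libraries (points), with the median of the family in each library (bars), under 4 scalings of the libraries. TH1 has the highest median with FPKM as deposited (0.99) and with median-ratio scaling (0.74) and the lowest with FPKM sum scaling (-0.44).

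The height of TH1 depended on how the libraries are put on a common scale, while TH2 was above TL1, TL2 and YH1 under all 4 scalings. With median-ratio scaling, which takes a factor for each library from genes that reach 10 FPKM in all of them, the family medians were 0.74 in TH1 and 0.24 in TH2, and -0.06 to -0.30 in the other 6 libraries. With each library scaled to the same FPKM sum, they were -0.44 in TH1 and 0.35 in TH2, against 0.47 in YH2 and 0.62 in YL2. The FPKM sum follows the mitochondrial genes, which held their largest share in TH1. With the sum over nuclear genes alone, they were 0.45 in TH1 and 0.52 in TH2, -0.74 in YL1 and 0.38 in YL2. These nuclear sums depend in turn on genes with few reads, since genes with at most 100 reads in a library held 14.5% (YL2) to 60.8% (YL1) of the nuclear FPKM.

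A share of the reads on nuclear genes takes another total as its scale. Ribosomal protein genes held 7.66% and 5.72% of the reads on nuclear genes in TH1 and TH2, 4.84% and 4.43% in TL1 and TL2, 4.21% and 4.30% in YH1 and YH2, and 4.71% and 4.37% in YL1 and YL2. Both TH libraries were above the other 6, which lay within a narrow band. The mean shares of reads were 6.69% ± 1.37 in TH, 4.63% ± 0.29 in TL, 4.25% ± 0.0636 in YH and 4.54% ± 0.24 in YL (SD, n = 2). An exact permutation test of 2 libraries against 2 cannot give a two-sided p under 0.333. As a share of nuclear FPKM, TH did not stand above the rest, with 8.19% and 8.78% in TH, 8.2% in YL2 and 3.61% to 5.98% in the other 5 libraries.

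Across the 79 genes, the Spearman correlation of FPKM was 0.948 to 0.995 over the 28 pairs of libraries and 0.971 to 0.995 over the 4 pairs within groups. This is a description across genes, which are not independent replicates, and the lowest value was that of TH1 and YH2. Levels that span 0.990 to 2202 FPKM keep such a correlation high, so that it says little of single genes. Set against the family median of TH1, single genes ran there from -1.37 (*RPL10L*) to 0.43 on the log2 scale, with *RPL7* at -0.96.

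Breeds at high altitude were compared first. In TH, 77 of the 79 ribosomal protein genes had a higher mean than in YH, with a median log2 fold change of 0.81, or 1.75-fold, against -0.03 over all genes tested; with FPKM sum scaling the median turned to -0.17, where all genes had -0.50. The quartiles were 0.55 and 1.0, and the medians of the large and the small subunit were 0.80 and 0.83. In 68 of the 79 genes both TH libraries lay above both YH libraries, as in 25.2% of all genes tested. With median-ratio scaling the counts were again 77 and 68, with a median of 0.68, and 21.2% of all genes did not overlap in this direction. With the sum over nuclear genes they were 77 and 61 (14.5% of all genes). FPKM sum scaling left 23 genes higher in TH, and 0 of the 79 without overlap, as 1.15% of all genes.

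By limma and edgeR, no single ribosomal protein gene passed the threshold between TH and YH, which asked for a Benjamini-Hochberg adjusted p under 0.01 together with a change of over 1 on the log2 scale, up or down. By limma, 0 of the 79 genes were called, as were 0.0336% of all genes tested, and the smallest adjusted p of the family was 0.140. At an unadjusted p under 0.05, 32 genes were higher in TH, against 7.71% of all genes tested, and 0 were lower. edgeR on reads recovered from the deposited values called 0 genes of the family and 0% of all genes, and DESeq2 called 2, *RPL12* and *RPL22L1*, beside 1.93% of all genes. At an unadjusted p under 0.05 in either direction, edgeR had 44 of the 79, against 14.9% of all genes, and DESeq2 58, against 16.4%.

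*RPL22L1* (ENSSSCG00000027441, chromosome 13, 118437978 to 118499704), a paralog of *RPL22*, had the smallest p of the family. The TH pair had 62.0 and 41.5 FPKM, the TL pair 22.7 and 21.4, the YH pair 23.1 and 23.5 and the YL pair 25.7 and 31.2. Both TH libraries were above all others. Its log2 fold change was 1.09 (SE 0.25, limma adjusted p = 0.140), and DESeq2 gave 1.49 with an adjusted p of 0.00863. Over the alternatives its fold change ran from 0.13 to 1.49 and its adjusted p from 0.00863 to 1.0.

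*RPL12* (ENSSSCG00000005612, chromosome 1, 301871922 to 301875380), which lies at the base of the stalk, had 922 and 568 FPKM in the TH pair, 363 and 326 in the TL pair, 262 and 329 in the YH pair and 312 and 299 in the YL pair. The TH libraries were again the 2 highest. Its log2 fold change from YH was 1.30 (SE 0.31, limma adjusted p = 0.151), and DESeq2 gave 1.39 with an adjusted p of 0.00373. Its fold change over the alternatives ran from 0.31 to 1.65 and its adjusted p from 0.00373 to 0.982.

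*RPL3* (ENSSSCG00000000089, chromosome 5, 6216928 to 6223999) encodes a protein near the catalytic centre of the large subunit. By limma on the deposited scale with all libraries, it had the largest fold change of the family between TH and YH. The TH pair had 575 and 451 FPKM, the TL pair 151 and 148, the YH pair 143 and 203 and the YL pair 127 and 259.9. The TH libraries were well above the other 6. Set against the mean of the gene, TH1 was at 1.38 and TH2 at 1.03 on the log2 scale, where the family had 0.99 and 0.21. The log2 fold change was 1.57 (SE 0.39, limma adjusted p = 0.156). Over the alternatives it ran from 0.58 to 1.82, and its adjusted p from 0.0163 to 0.946. Without TH1 the fold change was 1.4, the largest of the 79 genes also then. Without TH2 the largest of the 79 genes was 1.79, that of another gene.

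On the deposited scale the difference between TH and YH rested on TH1 in size and not in sign. Without TH1 the median log2 fold change fell to 0.42, with 76 of 79 genes higher in TH and 1 gene over 1. Without TH2 it was 1.2, with 78 genes higher and 52 over 1. With both TH libraries, 21 genes were over 1, against 4.07% of all genes tested.

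**Figure D3:**
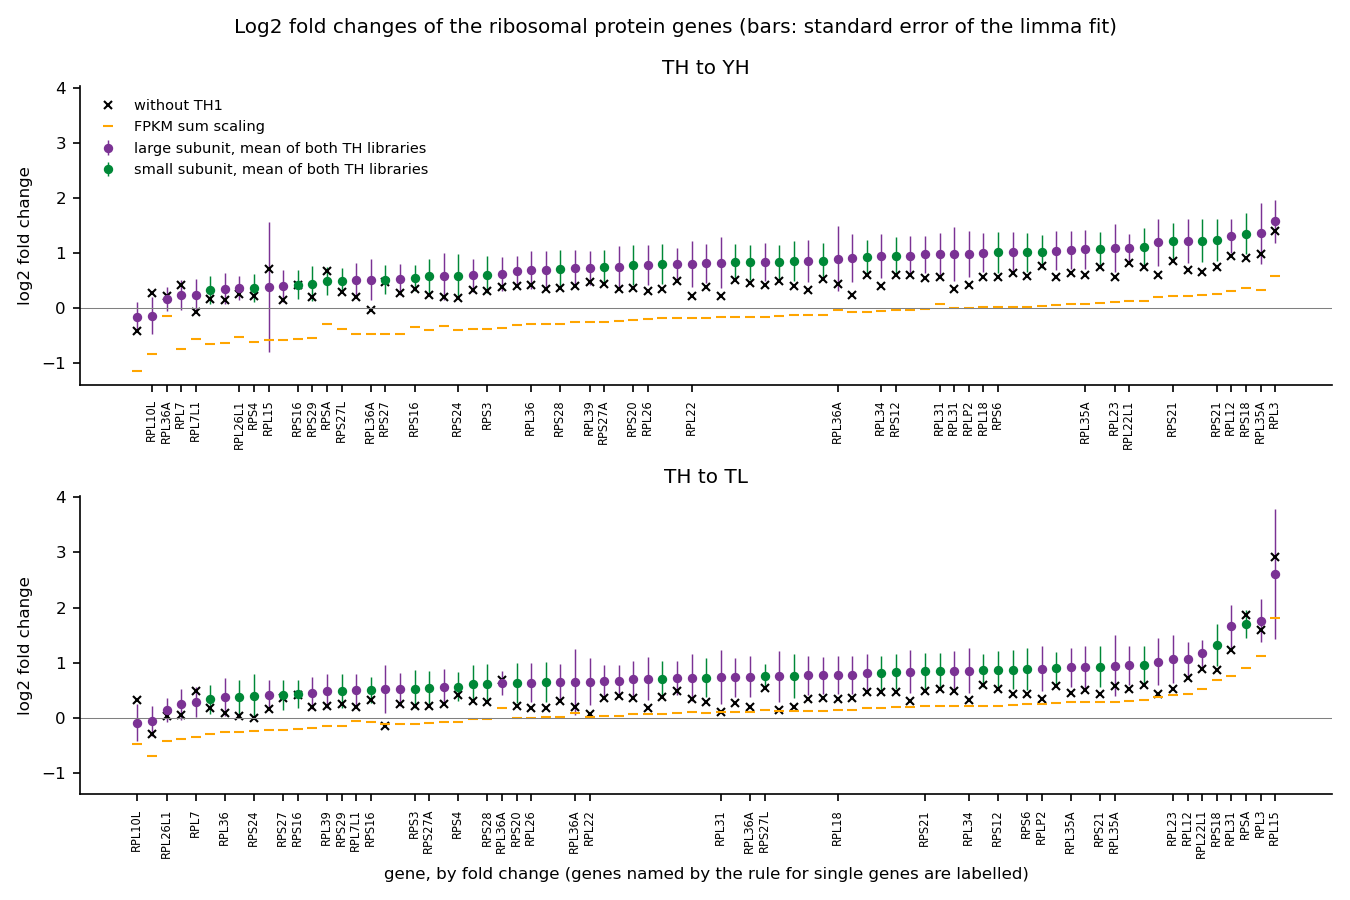
Log2 fold change of each of the 79 ribosomal protein genes from YH to TH (upper panel) and from TL to TH (lower panel), with its standard error, and the same value without TH1 (crosses) and with FPKM sum scaling (dashes). Medians of 0.81 and 0.73 became 0.42 and 0.34 without TH1, and -0.17 and 0.10 with FPKM sum scaling.

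Altitudes were compared within the Tibetan breed next, with the same TH libraries. Of the 79 genes, 77 had a higher mean in TH than in TL, with a median log2 fold change of 0.73, or 1.66-fold, against -0.02 over all genes tested; FPKM sum scaling left 53 genes higher and a median of 0.10. The large and the small subunit both had a median of 0.73. The TH libraries did not overlap with TL in 72 genes, as in 24.0% of all genes tested, and with FPKM sum scaling in 7, as in 2.05%. Of the family 0 genes were called by limma, beside 0.0504% of all genes, with a smallest adjusted p of 0.103, and 23 genes were higher at an unadjusted p under 0.05, against 5.81% of all genes. edgeR called 0, beside 0% of all genes, and DESeq2 called 2, *RPL3* and *RPSA*, beside 1.27%. At an unadjusted p under 0.05 they had 30 and 42 of the 79, against 10.5% and 11.5% of all genes.

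*RPSA* had the smallest p between TH and TL. Its log2 fold change was 1.70 (SE 0.25, limma adjusted p = 0.103; 5.77e-05 to 1.0 over the alternatives, the lowest by DESeq2). *RPL22L1* followed with 1.17 (SE 0.25, limma adjusted p = 0.209; 0.0428 to 1.0) and *RPL3* with 1.76 (SE 0.39, limma adjusted p = 0.213; 0.00227 to 1.0, the lowest by DESeq2). In these 3 genes TH lay above TL in both libraries under the deposited scale. They share the TH libraries with the comparison between breeds and are not a second, separate sign of it.

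In 57 of the 79 genes both TH libraries were above all of the other 6, as in 10.1% of all genes tested, and with median-ratio scaling it was again 57, against 7.81%. With the sum over nuclear genes it was 38, against 4.02%, and with FPKM sum scaling 0, against 0.336%. The 22 rows on the deposited scale where this was not so included *RPS24* and *RPS29* of the highest levels, both genes of the pairs *RPL7* and *RPL7L1*, and *RPL9*, *RPL14*, *RPL30* and *RPSA*. *RPL14* (ENSSSCG00000011272) was at 341 and 244 FPKM in TH and at 262 to 350.1 FPKM elsewhere, with a log2 fold change of -0.17 from YH. *RPL7* was at 434 and 569.6 FPKM in TH and at 373 to 483 FPKM elsewhere. Both are core proteins of the large subunit. In this list *RPL9*, *RPL14* and *RPL30* were named after their values were seen.

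At low altitude the breeds differed little. Between TL and YL the median log2 fold change was 0.05, with 50 of 79 genes higher in TL; it was -0.04 with median-ratio scaling (29 genes higher), -0.28 with FPKM sum scaling (2) and -0.11 without YL2 (18). TL lay above YL without overlap in 13 genes, as in 23.8% of all genes tested, and below it in 9, as in 17.8%; with median-ratio scaling these were 10 genes (19.7%) and 25 (19.4%). By limma 0 genes were called, beside 0.00839% of all genes, and at an unadjusted p under 0.05 0 genes were higher, against 5.90% of all genes, and 2 lower, against 3.04%. edgeR called 0, beside 0% of all genes, and DESeq2 called 1, beside 1.47%. Each had 2 genes at an unadjusted p under 0.05, against 11.2% and 12.6% of all genes.

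The gene that DESeq2 called was *RPSA*, lower in TL with a log2 fold change of -1.75 (adjusted p = 0.000534). By limma the change was -1.46 (SE 0.25, adjusted p = 0.187). Without YL1, where YL2 with its kidney genes alone stands for YL and is assumed to vary like the other groups, limma called 305 genes in all, *RPSA* among them (-1.74, adjusted p = 0.00991). The other gene at an unadjusted p under 0.05 was *RPS27L*, a paralog of *RPS27*, at -0.57 (SE 0.23, limma adjusted p = 0.525). *RPL15* had the third smallest p and a log2 fold change of -2.03 (SE 1.18, limma adjusted p = 0.682), which came from TL2 alone. It was at 5.27 FPKM with 65 reads there and at 100.3 to 203 FPKM in the other 7 libraries, and without TL2 the change was 0.07.

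Between YH and YL, 31 of the 79 genes were higher in YH, with a median log2 fold change of -0.04; scalings gave -0.11 with median ratios and -0.02 with FPKM sums. YH lay above YL in 2 genes, as in 21.9% of all genes tested, and below it in 11, as in 14.4%. Median-ratio scaling gave 25 below (14.7% of all genes) and FPKM sum scaling 0 (1.67%). By limma 0 genes of the family and 0% of all genes were called, and at an unadjusted p under 0.05 it was 0 of the family, where 4.39% of all genes were higher in YH. edgeR and DESeq2 also called 0, beside 0% and 0.302% of all genes, with 0 at an unadjusted p under 0.05, where 8.87% and 10.3% of all genes had one. The smallest p-values were those of *RPL26L1* (-0.37, SE 0.22), *RPL10L* (0.50, SE 0.33) and *RPS27L* (-0.32, SE 0.23), with limma adjusted p-values of 0.784, 0.784 and 0.787.

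YL2, the library with the kidney genes, was the lowest for 39 of the 79 genes on the deposited scale, as for 22.5% of all genes tested. It was the lowest for 6 with median-ratio scaling (12.4% of all genes) and for 1 with FPKM sum scaling (0.453%). With median ratios YH1 was the lowest for 48 genes (8.3% of all genes), and with FPKM sums TH1 for 44 (87.3%). With the sum over nuclear genes it was YL1, for 68 (50.9%). Without YL2 the medians were -0.11 between TL and YL and -0.18 between YH and YL, both within 0.2 of no change on the log2 scale. All genes tested then had medians of 0.05 and 0.06, from which the family differed by -0.16 and -0.24. Of the 79 genes, 18 were then higher in TL than in YL and 12 higher in YH than in YL. *RPL3* in YL2, at 259.9 FPKM, was above the other YL library at 127 FPKM. For this gene the sign of the YL comparisons turned without YL2, from -0.28 to 0.24 in TL to YL and from -0.09 to 0.43 in YH to YL.

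The altitude difference of the Tibetan pigs was then set against that of the Yorkshire pigs. The difference of these differences was above 0 in 77 of the 79 genes, with a median of 0.77 on the log2 scale, against -0.01 over all genes tested; it was 0.73 with median-ratio scaling and 0.12 with FPKM sum scaling. By limma 0 genes were called, beside 0.0336% of all genes, and 8 were above 0 at an unadjusted p under 0.05, against 3.78% of all genes. edgeR called 0, beside 0% of all genes, and DESeq2 called 1, beside 0.630%. At an unadjusted p under 0.05 they had 13 and 27 of the 79, against 11.3% and 12.8% of all genes. The called gene was *RPSA*, with 2.34 and an adjusted p of 0.00187 by DESeq2, against 1.95 (SE 0.36, adjusted p = 0.246) by limma. *RPL22L1* had 1.44 (SE 0.35, limma adjusted p = 0.306) and *RPL3* 1.85 (SE 0.55, limma adjusted p = 0.357).

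**Figure D4:**
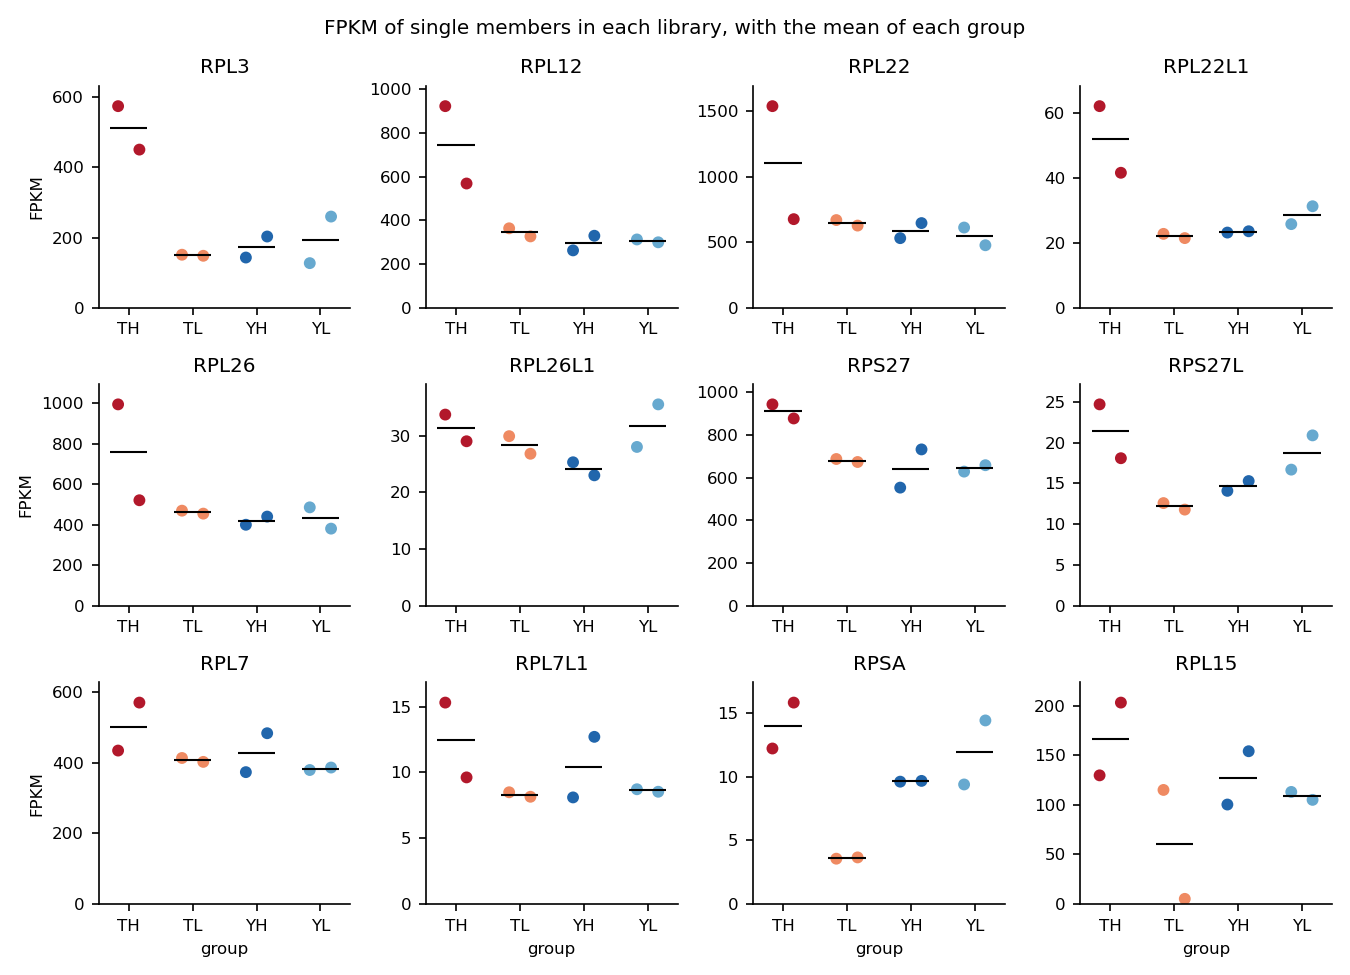
FPKM of 12 ribosomal protein genes in each of the 8 libraries (points, linear axis from 0), with the mean of each group of 2 libraries (line). RPL3, RPL12 and RPL22L1 were highest in both TH libraries, RPSA was lowest in both TL libraries, and RPL15 was at 5.27 FPKM in TL2 alone.

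Some ribosomal proteins have a second gene of similar sequence, and the table holds both genes of 4 such pairs. *RPL22L1* was at 4.03% and 6.15% of the FPKM of *RPL22* in TH1 and TH2, with 3.40% and 3.41% for the TL pair, 4.35% and 3.65% for the YH pair and 4.21% and 6.56% for the YL pair. The share was highest in YL2 and TH2 and lowest in TL, while on recovered reads the lowest library was YH2. *RPL22* itself was at 1537 and 675 FPKM in TH and at 476 to 668 FPKM elsewhere.

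*RPS27L*, a target of p53, was at 2.62% and 2.07% of *RPS27* in the TH pair, 1.83% and 1.75% in the TL pair, 2.55% and 2.09% in the YH pair and 2.65% and 3.17% in the YL pair. Both TL libraries had the lowest shares and YL2 the highest, while on recovered reads TH1 was the highest. *RPL26L1* was at 3.39% and 5.56% of *RPL26* in the TH pair, 6.38% and 5.90% in the TL pair, 6.33% and 5.22% in the YH pair and 5.76% and 9.34% in the YL pair. Here TH1 was the lowest and YL2 the highest library. The share of *RPL7L1*, a protein linked to ribosome assembly, in *RPL7* was 3.52% in TH1 and 1.69% to 2.64% in the other 7 libraries.

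In each pair the second gene was thus at most 9.34% of the first. *RPL26L1*, at 33.7 and 29.0 FPKM in TH and 23.0 to 35.5 FPKM elsewhere, overlapped between the groups, although *RPL26* at 994 and 521 FPKM in TH was above its 381 to 486 FPKM in the others. *RPL10L*, a copy of *RPL10* known from testis, was at 10.3 and 19.2 FPKM in TH and at 9.07 to 18.2 FPKM elsewhere. No row is named RPL3L, RPL10, RPL39L or RPLP0, and those genes were not analysed here. *RPL39*, which lines the exit tunnel, was at 1181 and 812 FPKM in TH and at 546 to 706 FPKM elsewhere. *RPS4*, which the table of gene names gives as the copy on the X chromosome, was at 593 and 487 FPKM in TH and at 355 to 455 FPKM elsewhere.

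Some ribosomal proteins have names that the rule misses. *FAU*, which is made as a fusion with a ubiquitin-like protein, was at 2073 and 1156 FPKM in TH and at 777 to 952 FPKM elsewhere. *GNB2L1*, the scaffold protein also called RACK1, was at 1273 and 864 FPKM in TH and at 448 to 662 FPKM elsewhere. In both genes the TH libraries did not overlap with the other 6, and TH1 was the higher of the pair.

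Other mRNAs known for a pyrimidine tract at their start, mostly translation factors, had a smaller difference. Of the 14 tested, 8 were higher in TH than in YH with a median log2 fold change of 0.06, where 47.5% of all genes were higher. Their medians over the libraries were 0.22 in TH1 and -0.06 in TH2. The median fold change was -0.07 with median-ratio scaling, -0.12 without TH1 and -0.89 with FPKM sum scaling. At an unadjusted p under 0.05 by limma, 1 was higher, against 7.71% of all genes, and 1 lower. Of these genes limma called 0, beside 0.0336% of all genes. *EEF1B2*, a subunit of the elongation factor that reloads GTP, was at 359.8 and 259 FPKM in TH and at 198 to 229 FPKM elsewhere. *EEF2*, the translocation factor, was at 319 and 382 FPKM in TH and at 418 to 565 FPKM elsewhere. *EIF4B* was at 18.2 and 42.7 FPKM in TH and at 49.5 to 103 FPKM elsewhere, with a log2 fold change of -1.63 from YH (limma adjusted p = 0.152). The TH libraries were thus the highest for the first of these 3 genes and the lowest for the other two.

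Of 22 ribosome assembly and nucleolar genes tested, 12 were higher in TH than in YH (median 0.06), where 47.5% of all genes were higher. Higher in TH than in TL were 17 (median 0.34), where 48.0% of all genes were higher. At an unadjusted p under 0.05 by limma, 4 and 5 were higher, against 7.71% and 5.81% of all genes. The limma threshold called 0 in both comparisons, beside 0.0336% and 0.0504% of all genes. The second median was 0.19 without TH1, 0.16 with the sum over nuclear genes and -0.15 with FPKM sum scaling, and the first was -0.07 with median-ratio scaling. *FBL*, the methylase of ribosomal RNA, was at 70.2 and 34.4 FPKM in TH and at 17.2 to 25.4 FPKM elsewhere. *DKC1*, which makes pseudouridine in ribosomal RNA, was at 27.6 and 14.7 FPKM in TH and at 8.47 to 12.3 FPKM elsewhere. *NHP2*, of the same complex as DKC1, was at 19.6 and 16.0 FPKM in TH and at 6.25 to 8.75 FPKM elsewhere, with a log2 fold change of 1.13 from YH (limma adjusted p = 0.118). All 3 were highest in TH, whereas *POLR1A* and *POLR1B* of RNA polymerase I were at 2.68 to 3.72 FPKM in TH and at 3.20 to 5.87 FPKM elsewhere.

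Of 12 genes of mTOR and the S6 kinases, 5 were higher in TH than in YH, with a median of -0.05, where 47.5% of all genes were higher. By limma 0 were called, beside 0.0336% of all genes. *MTOR* was at 6.94 and 6.11 FPKM in TH and at 4.64 to 6.22 FPKM elsewhere. *EIF4EBP1*, which holds back translation until mTOR phosphorylates it, was at 104 and 54.6 FPKM in TH and at 29.0 to 43.5 FPKM elsewhere (log2 fold change of 1.09 from YH, limma adjusted p = 0.229). *LARP1*, which binds mRNAs with a pyrimidine tract, was at 2.88 and 7.11 FPKM in TH and at 5.15 to 12.5 FPKM elsewhere. Only *EIF4EBP1* of these 3 was clearly higher in both TH libraries.

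**Figure D5:**
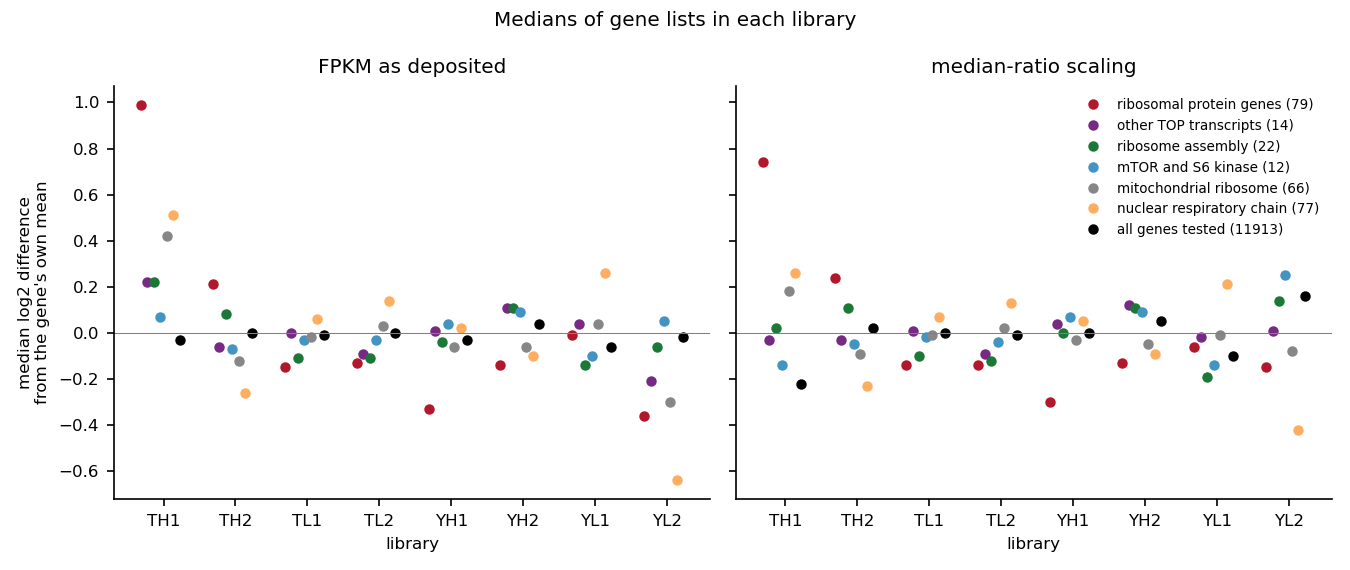
Median log2 difference of each gene list from the genes' own means, in each of the 8 libraries, with FPKM as deposited (left) and with median-ratio scaling (right); the number of genes tested is in brackets. The ribosomal protein genes were at 0.99 in TH1 and 0.21 in TH2, while respiratory chain genes were at 0.51 and -0.26 and all genes tested at -0.03 and 0.00.

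Lists of mitochondrial function separated TH1 from TH2. Genes of the mitochondrial ribosome (66 tested) had a median of 0.42 in TH1 and -0.12 in TH2, and nuclear genes of the respiratory chain (77 tested) of 0.51 and -0.26. Genes outside the family with a mean of at least 100 FPKM (533 genes) had a median of 0.36 in TH1, -0.14 in TH2 and -0.58 in YL2. On the deposited and the median-ratio scale both mitochondrial lists were thus above 0 in TH1 and below 0 in TH2, and the ribosomal protein genes were above 0 in both. With FPKM sum scaling the mitochondrial ribosome was at -0.83, the respiratory chain at -0.90 and the family at -0.44 in TH1, where all genes had -0.71. With the sum over nuclear genes the first list was at -0.11 in TH1 and 0.17 in TH2, and the second at -0.03 and 0.04. On the deposited scale the fold changes of these lists from YH to TH had medians of 0.21 and 0.18, which became -0.04 and -0.21 without TH1, while that of the family fell from 0.81 to 0.42. The number of reads per FPKM, which grows with transcript length, had a Spearman correlation across 4161 genes of -0.05 with the height in TH1 and -0.03 with that in TH2, which is a description with no test.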

How the data were processed

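RNA-seq of heart was measured in 8 libraries, 2 for each of TH, TL, YH and YL, made from total RNA with the Illumina TruSeq RNA kit and read in pairs of 100 bases. Alignment was to Sscrofa10.2 by TopHat2 2.0.9 (Bowtie 0.12.5, per the submitters' processing notes), and the FPKM deposited here were computed by the authors with Cufflinks; they used DESeq 1.10.1 for their own comparisons. Beside FPKM the table holds a signal, deposited as scaled read values with a factor for each library that is not described in the sources used here. Divided by the commonest low value of its library, from 99.75% to 99.9% of the low values came out whole within 0.1, and these whole reads gave the reads per gene, the shares of reads and the count tests. Columns with group means and ratios of the authors were not used.

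The ribosomal protein genes, the other lists and the tests were chosen with earlier results of these data known. Group means were fitted with limma 3.58.1 in R 4.3.3 to log2(FPKM + 1) of all genes past the filter, moderated with a trend (4 residual degrees of freedom and a prior of 2.833), and p-values were adjusted over all of them. The pseudocount shrinks the fold changes of low genes. edgeR 4.0.16 (quasi-likelihood test, TMM) and DESeq2 1.42.0 on the recovered reads were alternatives, as were scalings, filters, a pseudocount of 0.1 and each library left out. The limma, edgeR and DESeq2 fits were tested on simulated data for TH to YH, TL to YL and YH to YL, where DESeq2 made more false calls than the other tools and all 3 missed most of the smaller changes set. The other comparisons and settings were not simulated. The level classes, the correlation with reads per FPKM and that between libraries were chosen after seeing the data. Named genes were the 10 with the highest mean, the 5 lowest that passed the filter, those that did not pass, paralog pairs, the P proteins, RPSA, RPS6 and RPS27A, symbols on several rows, and in each comparison the 3 smallest p-values and RPL3; of these, rows that add nothing are given by range. Genes of the other lists were named after their values were seen. Coordinates are those of the table, where neighbouring genes can share a locus. Values of a few single genes are not reported here.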

Additional observations from a re-analysis of the deposited data

Results flagged for a closer look

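For 9 of the 79 ribosomal protein genes, all libraries of one breed moved up with altitude and all of the other breed moved down, as in 4.06% of all genes tested, and for 7 the breeds differed in opposite directions at the 2 altitudes, as in 3.65%. The rows named by the rule for single genes are given here, each with its difference of differences on the log2 scale. RPS20 had 0.89 and RPS29 0.67, with both TH libraries above TL and both YH libraries below YL (limma adjusted p = 0.554 and 0.589). RPS27A had 0.66 and a row of RPL35A (ENSSSCG00000011856) 1.13, in the same directions (limma adjusted p = 0.598 and 0.478). RPL22L1 had 1.44 and RPS27L 1.07, again higher in TH than in TL and lower in YH than in YL (limma adjusted p = 0.306 and 0.359). RPSA had 1.95 (limma adjusted p = 0.246) and a row of RPL31 (ENSSSCG00000008170) 1.63 (limma adjusted p = 0.380), each with TH above YH and TL below YL. None of these differences passed the threshold by limma, and DESeq2 called that of RPSA alone among the 79 genes. The RPL31 row rests on 32 to 214 reads per library. The directions given here are those on the deposited scale. With FPKM sum scaling, 0 of the 79 genes had both YL libraries above both YH libraries (1.67% of all genes). With the sum over nuclear genes it was 1 (1.41%), and with median-ratio scaling 25 (14.7%). Both TH libraries lay above both YH libraries in 0 with FPKM sum scaling (1.15%). Thus none of the rows given here kept both of its directions with FPKM sum scaling.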

How the results depend on the processing

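With FPKM sum scaling the median log2 fold change of the 79 genes was -0.17 between the breeds at 3000 m, -0.28 between them at 100 m, 0.10 between altitudes in Tibetan pigs and 0.12 for the difference of differences. This scaling moved the median of all genes by over 0.1, from -0.03 to -0.50 in TH to YH, so that the family was 0.33 above it. Leaving out each library gave 0.42 to 1.2, -0.11 to 0.21, 0.34 to 1.16 and, for the last, 0.40 to 1.16, with -0.18 to 0.14 in YH to YL; the extremes of TH to YH and TH to TL were those without TH1 and without TH2. Counts of called genes, 0 by limma, were 2, 1, 2 and 1 with DESeq2 and 6, 1, 4 and 2 at an unadjusted p under 0.01 (in the order of the first sentence; 4.06%, 2.03%, 2.57% and 2.85% of all genes), and 0 to 1 in TL to YL when a library was left out, the 1 being RPSA without YL1. For single genes, 250 of 261 alternative values kept their direction and side of the threshold, 7 passed it and 4 turned: RPL15 in TL to YL ran from -4.13 to 0.07, RPL3 in TL to YL from -0.79 to 0.24 and RPL3 in YH to YL from -0.60 to 0.43 without single libraries (0.16 without YH1). The share of nuclear FPKM, 8.48% ± 0.417 in TH, 5.91% ± 0.0141 in TL, 5.35% ± 0.891 in YH and 5.9% ± 3.25 in YL (SD, n = 2), was 6.69%, 4.63%, 4.25% and 4.54% of reads. Replicate numbers do not pair the libraries (correlations of -0.08 to 0.12); with the replicate block 0 genes of the family were called, beside 0% to 0.0336% of all genes, and the medians were 0.81, 0.05, 0.73 and -0.04. The pair RPL3 and RPL3L was not compared, since no row is named RPL3L. With 2 pools a group, differences between animals were not measured.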
